A study of Rattus norvegicus with 9 samples.

Results

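Vapb, Tardbp, Vcp, Optn, Atxn2, Atxn2l and Matr3 were followed in ventral spinal cord from rat embryos with a human SOD1 (hSOD1) transgene. Variants of their human counterparts, apart from that of Atxn2l, are linked to amyotrophic lateral sclerosis (ALS), a fatal loss of motor neurons, and Atxn2l codes for the close relative of ataxin-2. The 7 genes were taken from 14217 gene symbols on the array by name, and all probe sets annotated with 1 of these symbols alone were kept, which gave 13 probe sets of 31042. The genes were chosen with earlier results of these arrays known: Atxn2l was selected on its distance from the control pool and Vapb was named from its level in mutant against wild-type pools. Those 2 comparisons, and those of Vapb with the control, are therefore given as values, without a test.

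Each of 9 Affymetrix rat arrays carried total RNA from 1 pool of 5 embryos at embryonic day 14. In 4 pools the embryos carried mutant hSOD1 with the G93R change, in 4 pools wild-type hSOD1, and 1 pool was the negative control, titled as negative although its description also calls the embryos positive. The promoter of either transgene is not stated here. The labels give each transgene its own source, so mutation, rat line and insertion site cannot be told apart. The control has no replicate, and its title, SDneg, gives no transgene; the transgenic titles give no such label. A title suffix of unstated meaning, le2, is borne by 3 mutant and 3 wild-type pools, and not by replicate 1 of either group or by the control. The replicates are pools that the labels call biological, and the spread is that between pools.

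SOD1 removes superoxide, and mutant forms of it misfold and poison motor neurons. The genes followed here belong to other routes by which the same disease arises. Tardbp and Matr3 code for TDP-43 and matrin-3, RNA-binding proteins of the nucleus that act in splicing. Atxn2 and Atxn2l code for ataxin-2 and its relative, cytoplasmic RNA-binding proteins of stress granules, and ataxin-2 modifies the toxicity of TDP-43 in yeast and flies. Vcp codes for an ATPase that pulls ubiquitin-tagged proteins out of complexes and membranes, Optn for optineurin, a receptor that brings ubiquitin-tagged cargo to autophagosomes, and Vapb for a protein of the endoplasmic reticulum that tethers it to other membranes. In bulk tissue, fewer cells of a type and less RNA per cell cannot be told apart.

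Values are the authors' intensities on a linear scale, which compare arrays for 1 probe set but not 1 probe set with another. Differences are on the log2 scale after adding a pseudocount of 8.25 to each intensity, from limma fits of 18625 probe sets above a filter on dim signal, with p-values adjusted over all of them. Intervals given as multiples of a level are on the same scale, pseudocount included. Of the 13 member probe sets, 11 passed the filter. The 2 below it were 1 of Vapb (1369597_at) and 1 of Optn (1370618_at), and they are given as values only.

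Array medians lay between 31.0 and 33.9. Of the ventral cord and motor neuron markers, 9 of 11 were named on the array. The 6 above the filter were Isl1, Isl2, Chat, Slc18a3, Nkx2-2 and Nkx6-1, while Olig2, Foxa2 and Shh were below it. Mutant means were above wild-type means for Isl1 (468 against 337), Chat (155 against 130) and Slc18a3 (395 against 328). They were below them for Nkx2-2 (64.3 against 74.4), Nkx6-1 (145 against 170) and Isl2 (45.4 against 46.3). The summed level of the 9 ranged from 1100 to 1550 in mutant pools and from 977 to 1319 in wild-type pools, with 1231 in the control. The 2 named markers of blood, Hbb and Alas2, and the 3 of microglia, Aif1, Cx3cr1 and Csf1r, were all below the filter. Of the skeletal muscle and cartilage markers 3 of 5 were above it, Myog, Acta1 and Col2a1, and the 5 summed to 151 to 173 in mutant pools, 121 to 183 in wild-type pools and 125 in the control. Of the dorsal cord markers Msx1 was above it and Tlx3 below, of the vessel and meninges markers 1 of 4, Col3a1, was above it, and Sox10 of glia and neural crest was below. The sensory ganglion markers, 3 of 4 above the filter and Isl1 shared with the motor neuron list, summed to 665 to 876 in mutant pools, 464 to 605 in wild-type pools and 626 in the control. The probe set annotated as rat Sod1 read 2279 ± 247 in mutant pools, 2245 ± 157 in wild-type pools (SD, n = 4 each) and 1699 in the control. Whether it also reads RNA of the human transgene was not checked. The ratio of 3' to 5' beta-actin signal, which grows as RNA degrades, was 6.98 to 7.98 in mutant pools, 8.19 to 19.2 in wild-type pools and 6.66 in the control (mutant against wild-type, exact two-sided permutation p = 0.0286, the smallest possible). The highest ratio was that of wild-type replicate 2. The same ratio for GAPDH was 2.49 to 2.587 in mutant pools and 2.585 to 3.56 in wild-type pools, again highest in wild-type replicate 2. For GAPDH the groups overlapped (exact two-sided permutation p = 0.0571), and the control, at 2.68, lay above all mutant pools. The part of ganglion, muscle or cartilage tissue in the differences of the members was not tested.

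The first question was whether the mRNA of these genes differed with the mutation. No member probe set differed past the threshold by mutation: 0 of 11 passed limma's adjusted p of 0.05, and 0 of 11 had an unadjusted p under 0.05. The 11 include Vapb 1390257_at, of a gene named from this comparison, and nothing is read from its place in these counts. Of all tested probe sets 0.0161% passed the adjusted threshold and 4.93% the unadjusted one. Of the 11, 6 were higher and 5 lower in mutant pools, with a median difference of 0.0040 against 0.01 over all tested probe sets. The differences ran from -0.16 to 0.18, the latter that of Vapb 1390257_at, and their median size was 0.03, against 0.10 over all tested probe sets. That background was not matched to the members in intensity, so the smaller size is not read as a trait of these genes. The groups overlapped at each of the 11, while they did not overlap at 2.95% of all tested probe sets.

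**Figure D1:**
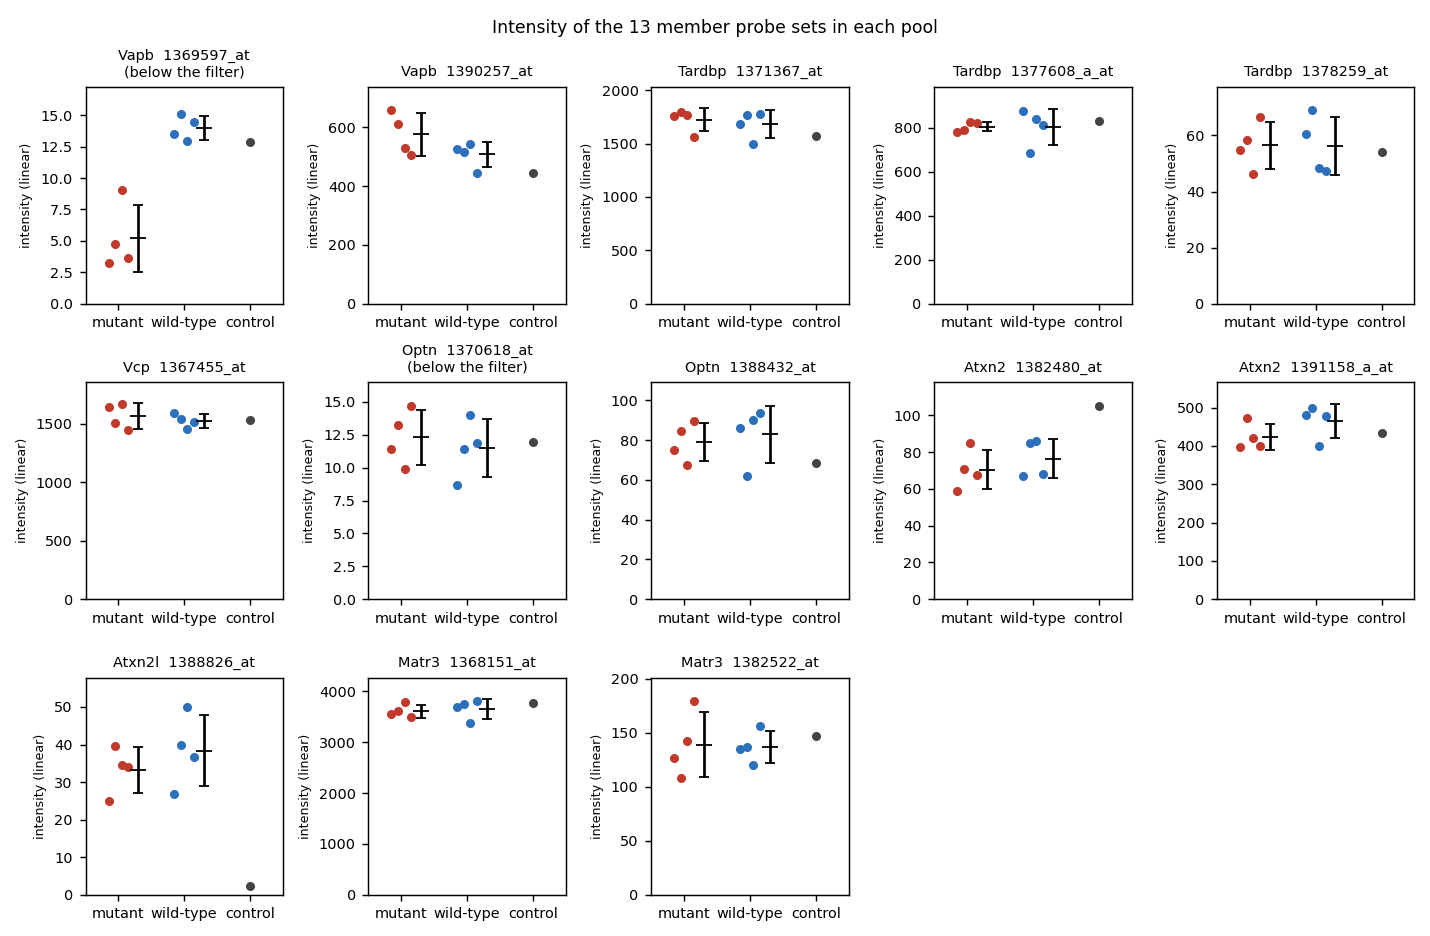
Intensity (linear scale, from 0) of each of the 13 member probe sets in the 4 mutant pools, the 4 wild-type pools and the control pool; black marks show mean and SD of the 4 pools. The groups overlap in most panels, while Vapb 1369597_at separates mutant from wild-type pools at intensities of 15.1 and less, and Atxn2l 1388826_at separates the control, at 2.21, from all 8 transgenic pools.

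Among the genes of nuclear RNA-binding proteins, Tardbp was the best sampled, with 3 probe sets. On 1371367_at it read 1762, 1798, 1768 and 1562 in mutant pools, against 1688, 1772, 1500.1 and 1777 in wild-type pools and 1575 in the control. The groups overlapped, and the lowest pool of each lay below the control. The mutant minus wild-type log2 difference was 0.03 (SE 0.0765, 95% interval -0.13 to 0.20, limma adjusted p = 0.972). The interval corresponds to levels between 0.913 and 1.15 times those of wild-type pools.

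The other Tardbp probe sets gave differences near 0 without covariates. On 1377608_a_at, whose suffix marks probes shared by transcripts of 1 gene, Tardbp was 804 ± 21.4 in mutant pools, 803 ± 82.3 in wild-type pools (SD, n = 4 each) and 828 in the control, and the log2 difference was 0.0067 (95% interval -0.18 to 0.19, limma adjusted p = 0.993). On the dimmer 1378259_at it was 56.4 ± 8.46 in mutant pools, 56.3 ± 10.4 in wild-type pools and 54.3 in the control (limma adjusted p = 0.997). The 3 probe sets did not rise and fall together from pool to pool: over the 9 arrays the correlations of their log2 values were -0.44, 0.0012 and -0.47, which describes these arrays only, since the arrays share 1 scaling. With the actin ratio as a covariate the difference on 1377608_a_at turned to -0.12 and that on 1378259_at grew to 0.18, neither past the threshold. Set against the control, all 3 probe sets had intervals across 0, with differences of 0.11, -0.05 and 0.04.

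Matr3, which codes for matrin-3, had 1 very steady and 1 variable probe set. On 1368151_at the mutant pools read 3559, 3605, 3789 and 3488, against 3688, 3758, 3375 and 3809 in wild-type pools and 3778 in the control. Mutant and wild-type pools covered nearly the same range. The log2 difference was -0.02 (SE 0.0592, 95% interval -0.15 to 0.11, limma adjusted p = 0.977), so that the interval spans 0.904 to 1.08 times the wild-type level. Its residual SD lay at the 2.41st percentile of the tested probe sets, the lowest among the 11. The dimmer probe set, 1382522_at, was 139 ± 29.96 in mutant pools, 137 ± 14.6 in wild-type pools and 147 in the control (log2 difference 0.0040, limma adjusted p = 0.998), with a residual SD at the 66.3rd percentile. The control lay above 6 of the 8 transgenic pools on both probe sets, by little: the differences of both transgenes from the control were -0.06 and -0.10 with intervals across 0.

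Among the genes of protein clearance, Vcp had 1 probe set and a narrow spread. It read 1637, 1503, 1670.2 and 1443 in mutant pools, against 1593, 1539, 1452 and 1513 in wild-type pools and 1531 in the control. The control stood in the middle, with 2 mutant and 2 wild-type pools above it. The mutant minus wild-type log2 difference was 0.03 (SE 0.0707, 95% interval -0.12 to 0.19, limma adjusted p = 0.969). That between both transgenes and the control was 0.01 (SE 0.106, 95% interval -0.22 to 0.24, limma adjusted p = 1.00). Among the 11 tested member probe sets Vcp had the smallest difference from the control, within an interval of 0.859 to 1.18 times its level.

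Optn, the autophagy receptor, was read by 1388432_at at 74.96, 84.4, 67.6 and 89.3 in mutant pools, against 86.1, 61.9, 90.1 and 93.6 in wild-type pools and 68.4 in the control. The low wild-type reading was that of replicate 2, the pool with the high actin ratio. The mutant minus wild-type log2 difference was -0.05 (SE 0.145, 95% interval -0.37 to 0.26, limma adjusted p = 0.975). It was -0.18 without that pool and -0.27 once the actin ratio entered the fit, neither past the threshold. Of the 8 transgenic pools, 6 lay above the control, and the difference was 0.21 (95% interval -0.26 to 0.68, SE 0.218, limma adjusted p = 1.00). With the actin ratio in the fit that difference was 0.37. The second Optn probe set, 1370618_at, was near the floor of the arrays at 12.3 ± 2.10 in mutant pools, 11.5 ± 2.20 in wild-type pools and 12.0 in the control.

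Vapb, the tether of the endoplasmic reticulum, had 2 probe sets, 1 above the filter and 1 below it. On 1390257_at it read 660, 612, 528 and 505 in mutant pools, against 528, 515, 543 and 444 in wild-type pools and 446 in the control. The 2 highest readings were mutant pools, and the other 2 mutant pools lay within the wild-type range. The mean was 576 ± 72.3 in mutant pools and 507.5 ± 43.6 in wild-type pools, or 0.18 apart on the log2 scale. Without mutant replicate 1 or without wild-type replicate 4 the difference was 0.11, and without mutant replicate 4 it was 0.24.

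On 1369597_at, the probe set for which the annotation lists a RefSeq mRNA of Vapb, the order was the opposite. It read 3.28, 4.77, 9.06 and 3.65 in mutant pools, against 13.5, 15.1, 12.9 and 14.5 in wild-type pools and 12.9 in the control. All 4 mutant pools lay below all 4 wild-type pools, and the control lay just under the lowest wild-type pool. The mutant minus wild-type log2 difference reached -0.75 with the pseudocount of 8.25, -1.21 with 2.06 and -0.30 with 33.0. All of these intensities are under the 17.3 that the filter corresponds to. Of the 12417 probe sets below the filter, 1.59% had all mutant pools below all wild-type pools, a share for this direction alone. The log2 values of both Vapb probe sets had a correlation of -0.66 over the 9 arrays, and of -0.40 over the 8 transgenic arrays after the group means were subtracted.

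**Figure D2:**
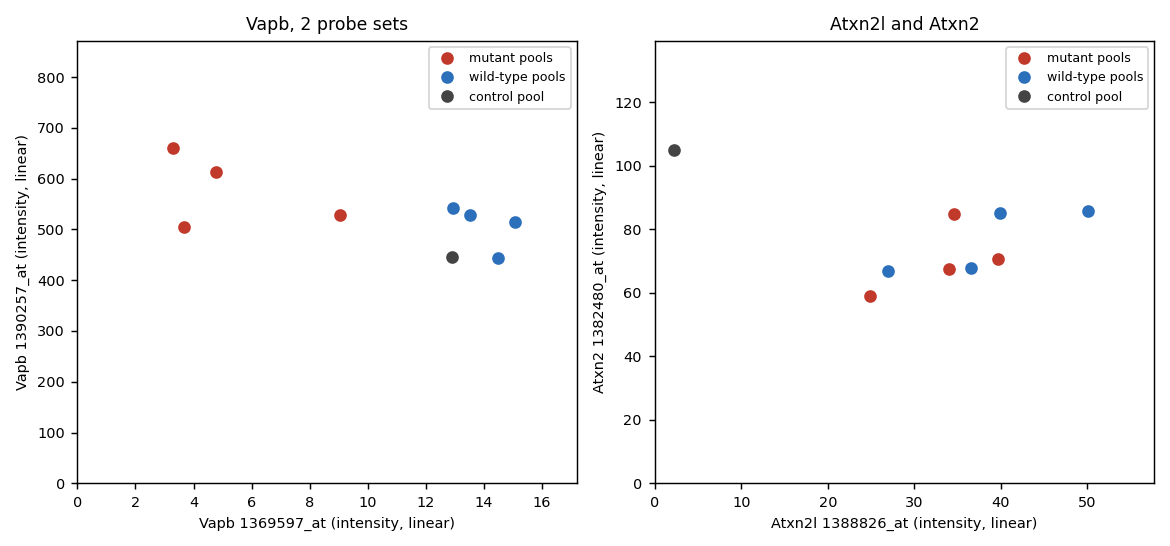
Each point is 1 pool, on linear intensity axes from 0. Left, the 2 Vapb probe sets: the 4 mutant pools lie at 9.06 or less on 1369597_at and between 505 and 660 on 1390257_at. Right, Atxn2l against Atxn2 1382480_at: the control lies at 2.21 and 105, apart from the 8 transgenic pools.

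Against the control, 1390257_at was higher in 7 of the 8 transgenic pools, with wild-type replicate 4 the exception. The difference was 0.27 on the log2 scale for both transgenes, 0.36 for mutant pools and 0.18 for wild-type pools, with the same control. These are given without a test, since mutant and wild-type pools served together to name Vapb.

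The second question was what the genes did in embryos with either transgene against the control. limma called 0% of all tested probe sets at an adjusted p of 0.05 in this comparison, as well as in those of either transgene alone with the control, so 0 of 11 member probe sets passed. An unadjusted p under 0.05 was reached by 2 of the 11, against 3.12% of all tested probe sets. They were Atxn2 on 1382480_at and Atxn2l, which was chosen on this comparison and counts as no evidence. Nothing is read from the place of Vapb 1390257_at in these counts either. Of the 11, 7 were higher and 4 lower with a transgene, with a median difference of 0.02 against -0.02 over all tested probe sets.

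**Figure D3:**
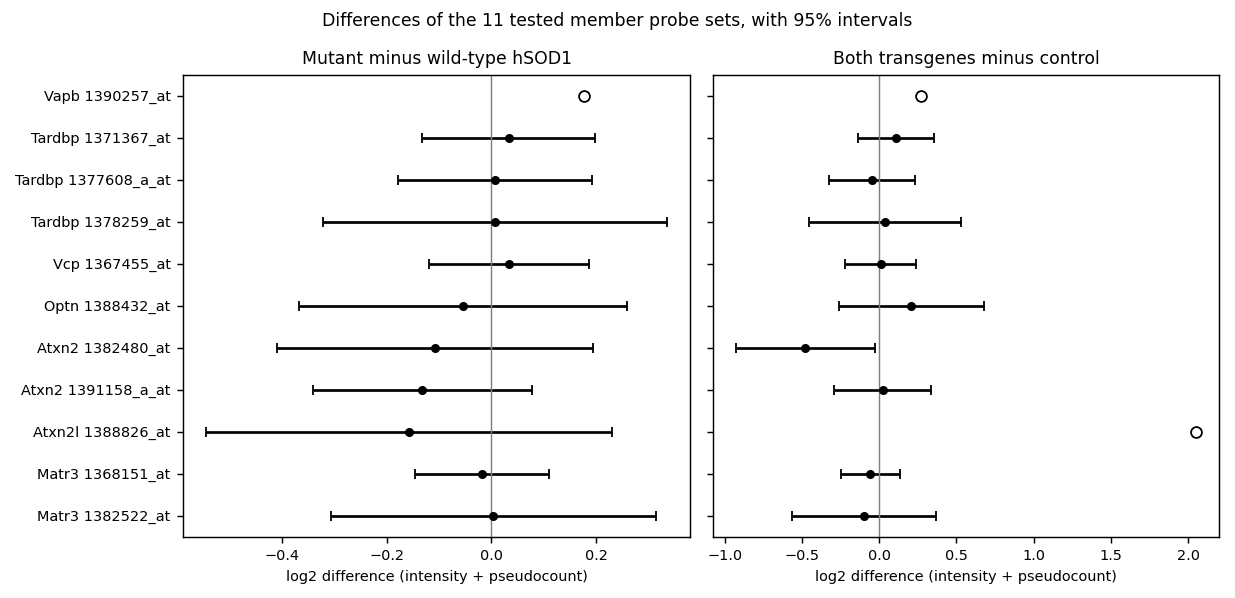
Log2 difference of the 11 tested member probe sets, mutant minus wild-type pools on the left and both transgenes minus the control on the right, with axes of different length. Bars are 95% intervals from limma, and open circles without a bar are untested values (Vapb at 0.18 on the left and 0.27 on the right, Atxn2l at 2.05), since their pools served to choose the gene. The intervals cross 0 for all tested differences shown except Atxn2 1382480_at against the control, whose adjusted p was 1.00.

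Atxn2l, the ataxin-2 relative, had 1 probe set, 1388826_at. It read 24.9, 39.6, 34.5 and 34.0 in mutant pools and 26.95, 39.9, 50.1 and 36.6 in wild-type pools, against 2.21 in the control. All 8 transgenic pools lay above the control, and mutant and wild-type pools overlapped. The mean of the 8 was 35.8 ± 7.92 (SD), and the log2 difference from the control was 2.05 with the pseudocount of 8.25, 3.12 with 2.06 and 0.96 with 33.0, since the control value lies under the pseudocount. Of 18625 tested probe sets, 21 were at least 2-fold higher with a transgene and 5 at least 2-fold lower on this scale. Atxn2l was chosen on this difference, so nothing is read from its place among the 21.

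The control reading of Atxn2l is at the floor of that array. Of all probe sets, 10.7% read 2.21 or less in the control, and 3 of these were among the 18625 tested. The filter used the mean over all arrays, so a probe set this low in the control passed it only through its transgenic readings. In the 8 transgenic arrays, 0 to 3 tested probe sets read 2.21 or less. The difference rests on 1 reading of 1 pool and on the only Atxn2l probe set. All 8 transgenic pools above the control was found at 9.19% of tested probe sets.

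The difference between mutant and wild-type pools played no part in choosing Atxn2l, although both groups together, set against the control, did. Atxn2l was 33.3 ± 6.15 in mutant pools against 38.4 ± 9.54 in wild-type pools (SD, n = 4 each). The log2 difference was -0.16 (SE 0.179, 95% interval -0.54 to 0.23, limma adjusted p = 0.950). Without wild-type replicate 1 it was -0.28 and without wild-type replicate 3 it was -0.04. Its interval was the widest of those given for mutant against wild-type pools, spanning 0.686 to 1.17 times the wild-type level with the pseudocount added to each intensity.

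Atxn2 itself was read by 2 probe sets that stood differently to the control. On 1382480_at it read 59.0, 70.7, 84.8 and 67.5 in mutant pools and 66.9, 85.3, 85.9 and 68.0 in wild-type pools, against 105 in the control. All 8 transgenic pools lay below the control, as at 10.5% of tested probe sets. The log2 difference was -0.48 (SE 0.208, 95% interval -0.93 to -0.03, limma adjusted p = 1.00). It was -0.53 for mutant pools and -0.43 for wild-type pools, with the same control in both. Atxn2l lay on the other side of the same control pool, but it was chosen on that comparison, so no contrast with this Atxn2 probe set is read. Over the 8 transgenic arrays, after the group means were subtracted, the correlation of Atxn2l with this Atxn2 probe set was 0.73, and with the brighter one, 1391158_a_at, it was -0.15. Over all 9 arrays, which include the control reading on which Atxn2l was chosen, these were -0.46 and 0.07. On Atxn2l and Atxn2 1382480_at replicate 1, the pool without the le2 suffix, was the lowest in both groups. With the suffix as a covariate the difference from the control was -0.67 for Atxn2 and 1.71 for Atxn2l.

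On 1391158_a_at, Atxn2 read 398, 472, 420.4 and 401 in mutant pools and 482, 498, 400 and 477 in wild-type pools, against 434 in the control, with 4 of the 8 transgenic pools on either side. The log2 difference between both transgenes and the control was 0.02 (SE 0.146, 95% interval -0.29 to 0.34, limma adjusted p = 1.00). Mutant pools averaged 423 ± 34.5 and wild-type pools 464 ± 44.0, with 3 wild-type pools above all mutant pools and the other near the lowest of them. The log2 difference was -0.13 (95% interval -0.34 to 0.08, SE 0.0970, limma adjusted p = 0.929). On 1382480_at that difference was -0.11 (95% interval -0.41 to 0.19, limma adjusted p = 0.953). Without mutant replicate 3 it was -0.19 and without mutant replicate 1 it was -0.03. With the actin ratio in the fit these differences were -0.05 on 1391158_a_at and -0.01 on 1382480_at. The correlation of the 2 Atxn2 probe sets over the 9 arrays was 0.03. For rat assembly GRCr8, RefSeq lists 33 transcripts of Atxn2, 25 each of Tardbp and Atxn2l, 17 of Matr3, 7 of Optn, 2 of Vapb and 1 of Vcp; which of them each probe set reads was not determined here.

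Within probe sets, the order of the 3 group means followed no common pattern. The mutant mean was the highest of the 3 for Vapb 1390257_at, Tardbp 1371367_at, Tardbp 1378259_at and Vcp, the wild-type mean for Optn 1388432_at, Atxn2 1391158_a_at and Atxn2l, and the control for Atxn2 1382480_at, Tardbp 1377608_a_at and both probe sets of Matr3. limma's adjusted p told no neighbours in these orders apart on the tested probe sets, with Vapb in all comparisons and Atxn2l against the control left untested. Correlations between genes went both ways, and those given are examples picked from all pairs of member probe sets, not a ranking. Over the 8 transgenic arrays, after the group means were subtracted, Tardbp 1371367_at and Matr3 1368151_at had a correlation of 0.86. Atxn2 1391158_a_at and Matr3 1368151_at had one of 0.71. Vcp and Optn 1370618_at, which is below the filter, had -0.92, and Vapb 1390257_at and Matr3 1382522_at had -0.83. Over all 9 arrays the same pairs had 0.59, 0.63, -0.83 and -0.67, and these are descriptions of arrays that share a scaling.

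The probe sets most like the members over the 9 arrays were found among 13296 tested probe sets with 1 symbol, by the highest Pearson correlation of log2 values. For Atxn2l these were Cdk10, Ptp4a3 and Cfap298, with r of 0.92, 0.91 and 0.91. Their correlations were 0.77, 0.64 and 0.42 over the 8 transgenic arrays after the group means were subtracted. Cdk10 read 106 ± 3.84 in mutant pools, 115 ± 10.9 in wild-type pools and 81.8 in the control. In the control Ptp4a3 (122) and Cfap298 (75.1) likewise read below both group means. For Atxn2l the r over 9 arrays includes the control reading on which the gene was chosen, so nothing is read from it. The nearest was Vash1 for Tardbp 1371367_at (0.94), Prkd3 for Matr3 1368151_at (0.93), Slc35a1 for Vcp (0.95), Wbp1 for Optn 1388432_at (0.95), Itga9 for Atxn2 1391158_a_at (0.92) and C5h1orf216 for Vapb 1390257_at (0.92). These are the highest of many candidates over only 9 arrays, and what other probe sets would give was not computed.

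The genes around the members were described with 6 lists, 1 probe set per gene, none of which includes a member. Of 20 tested ALS-linked genes other than the members and Sod1, 12 were higher and 8 lower in mutant than in wild-type pools, and 0 passed. The median difference was 0.03, against 0.01 over the 9868 genes tested. Taf15, an RNA-binding protein gene with the smallest p of the list, was 85.1 ± 9.38 in mutant pools, against 118 ± 35.5 in wild-type pools (adjusted p = 0.929 by limma). Tuba4a, a tubulin gene, was 42.6 ± 12.9 in mutant pools, against 30.6 ± 10.8 in wild-type pools (adjusted p = 0.929 by limma). Against the control 12 were higher and 8 lower, with 0 past the threshold and a median of 0.05.

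Partners of the RNA-binding members fell on both sides of 0. Of 19 tested partners of TDP-43 and matrin-3 in the nucleus, 10 were higher and 9 lower in mutant pools, and 1 passed, on the lower side: Ptbp3, a splicing regulator, at 700 ± 77.8 in mutant pools, against 1348 ± 137 in wild-type pools (log2 difference -0.94, limma adjusted p = 0.0053). limma called 0 probe sets in all, Ptbp3 included, without the intensity trend or with the actin ratio in the fit. Over all 9868 genes tested 2 passed, on the lower side as well. The list was chosen with earlier results of these data known, so nothing is read from the place of Ptbp3 in it. The median of the list was 0.01. Against the control 14 were higher and 5 lower, and 0 passed; Rbm14, a paraspeckle protein gene, read 1051 ± 87.0 with a transgene and 1339 without (limma adjusted p = 1.00). Of 17 tested partners of ataxin-2 and stress granule genes, 6 were higher and 11 lower in mutant pools and 8 higher and 9 lower against the control, with 0 past the threshold in both. Lsm12, whose protein binds ataxin-2, was 334 ± 49.4 in transgenic pools and 247 in the control (limma adjusted p = 1.00).

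Partners in protein clearance and at membrane contacts gave 0 calls as well. Of 16 tested cofactors of VCP, 6 were higher and 10 lower in mutant pools, while 12 were higher and 4 lower with a transgene than in the control, with a median of 0.10 against -0.0035 over all genes tested. Ufd1, part of the adaptor of VCP for ubiquitin-tagged proteins, was 896 ± 58.8 in transgenic pools, against 744 in the control, and Plaa was 251 ± 43.6 against 345 (limma adjusted p = 1.00 for each). Of 12 tested optineurin partners and autophagy receptors, 4 were higher and 8 lower in mutant pools and 8 higher and 4 lower against the control. Of 11 tested VAP partners, 9 were higher and 2 lower in mutant pools, with a median of 0.04, and 3 were higher and 8 lower against the control, with a median of -0.08. Osbpl1a, a lipid-binding protein gene, was 65.9 ± 5.55 in mutant pools, against 52.3 ± 5.21 in wild-type pools (adjusted p = 0.929 by limma), and Cert1, which codes for the ceramide carrier, 461 ± 58.0 in transgenic pools and 606 in the control (limma adjusted p = 1.00).

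**Figure D4:**
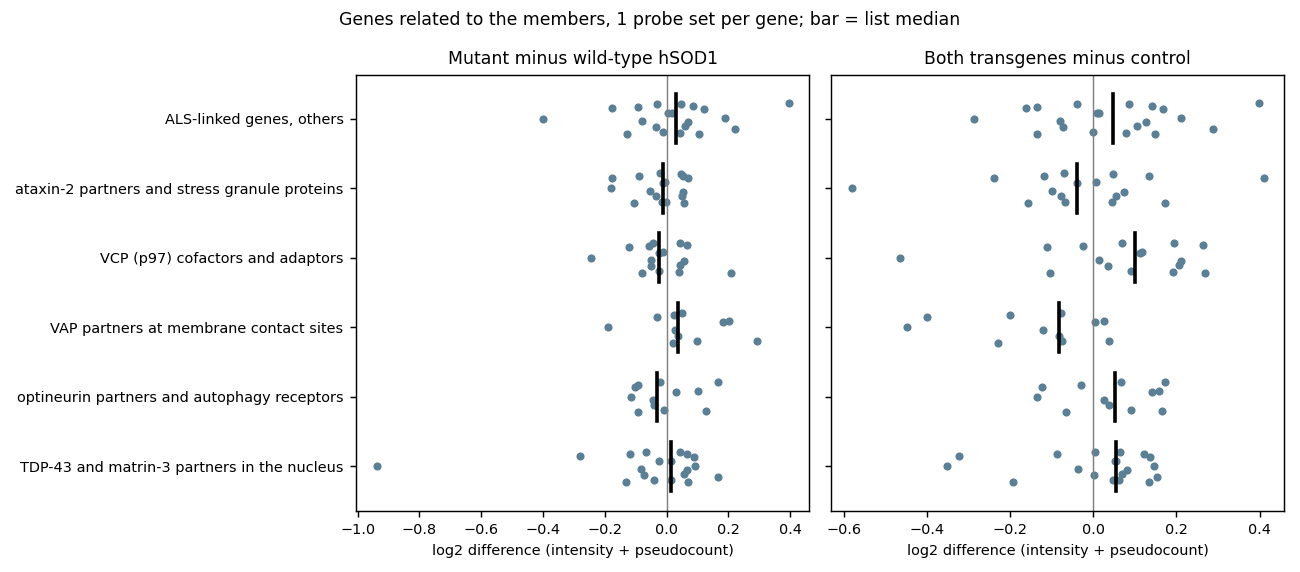
Log2 difference of each tested gene in the 6 lists around the members (1 point per gene, bar at the list median), mutant minus wild-type pools on the left and both transgenes minus the control on the right. The list medians lie between -0.03 and 0.04 on the left and between -0.08 and 0.10 on the right, and Ptbp3, at -0.94 on the left, is the gene past the threshold. The lists were chosen with earlier results of these data known.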

How the data were processed

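Each deposited value is a linear intensity that the authors computed per probe set; the sources used here do not name their software. The values show a common mean of 150.05 in every array after trimming 2% at each end, and no normalization was added. Of 31099 probe sets, 57 controls were left out. Names came from the platform annotation, and the Entrez identifiers of the 7 members matched the RefSeq table of GRCr8. Intensities were taken to log2 after adding 8.25, the 25th percentile, and probe sets in the lowest 40% by mean log2 value were left out. limma 3.58.1 in R 4.3.3 (lmFit, eBayes with intensity trend, Benjamini-Hochberg adjustment over 18625 probe sets, threshold 0.05) compared mutant with wild-type pools on their 8 arrays, and transgenic pools with the control on all 9, where the control is assumed to vary like the others. The mutant against wild-type fit was tested on simulated data, with planted changes larger than the differences of the tested member probe sets. The comparison with the control was not tested in this way. The exact permutation test used scipy 1.17.1.

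The members and lists were chosen with earlier results of these data known. Every member probe set is named; from each list, genes were eligible as the 2 with the smallest p per comparison. The alternatives are given in the closing section. Array number limits the precision. Probe sequences were not used here, and no genome positions are given, since the files name no build.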

Additional observations from a re-analysis of the deposited data

Results flagged for a closer look

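On Vapb 1369597_at all 4 mutant pools lay below the control and all 4 wild-type pools above it, the nearest at 12.94 against 12.90. On the log2 scale mutant minus wild-type was -0.75, at intensities below the filter, and it was not tested. Vapb was named from this comparison, so nothing is read from the separation. Of the probe sets below the filter, 1.59% had all mutant pools below all wild-type pools. The share with the control between the groups is not given here.

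On Tardbp 1371367_at, mutant replicate 4 read 1562, apart from the other 3 mutant pools: its gap to the next pool was 0.845 of the range of the 4, above Dixon's critical value. It was the only reading set apart in this way among 26 groups of 4, where chance gives about 1 in 20. Without it mutant minus wild-type on that probe set was 0.08 in place of 0.03.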

How the results depend on the processing

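Between mutant and wild-type pools 0 member probe sets passed the threshold under each of the 18 alternatives. Against the control the count was 1, Atxn2l, with a pseudocount of 2.06 and without wild-type replicate 1, so that leaving out single arrays gave 0 to 1, and 0 under the others; the gene was chosen on that comparison. At the 60th percentile filter Atxn2l and Tardbp 1378259_at were not tested. The sign of differences near 0 turned at 7 probe sets between mutant and wild-type pools and at 5 against the control, none of them past the threshold. With the actin ratio as a covariate, mutant minus wild-type became -0.12 for Tardbp 1377608_a_at, 0.0071 for Matr3 1368151_at and -0.029 for Matr3 1382522_at, and transgenic minus control became 0.049, -0.095 and -0.036 for Tardbp 1377608_a_at, Tardbp 1378259_at and Atxn2 1391158_a_at. With quantile normalization, mutant minus wild-type became -0.0087 for Tardbp 1378259_at and -0.0056 for Matr3 1382522_at, and transgenic minus control -0.020 for Vcp and 0.024 for Optn 1370618_at. Leaving out single arrays, mutant minus wild-type ran from -0.021 to 0.079, -0.066 to 0.050 and -0.066 to 0.099 for Tardbp (1371367_at, 1377608_a_at, 1378259_at), -0.013 to 0.12 and -0.18 to 0.011 for Optn (1370618_at, 1388432_at) and -0.056 to 0.0021 and -0.12 to 0.11 for Matr3 (1368151_at, 1382522_at). For Vcp it ran from 0.0016 to 0.072. Transgenic minus control ran from -0.0093 to 0.076 for Tardbp 1378259_at, -0.0062 to 0.029 for Vcp, -0.043 to 0.023 for Optn 1370618_at and -0.0027 to 0.058 for Atxn2 1391158_a_at. The cause was not tested. With the replicate block 0 member probe sets passed. The labels give no pairing, so the numbers were not taken as pairs. Deviations of same-numbered pools had r of 0.12, 0.09, -0.07 and 0.20, and 2 of 4 mutant pools, replicates 1 and 4, were closest to their own number. So few pools cannot settle whether same-numbered pools deviate together. With the replicate block 1211 tested probe sets had an unadjusted limma p under 0.05, against 918 without it. The lone control cannot be left out.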
